A study of Mus musculus with 4 samples.

Results

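T cell checkpoint ligands and costimulators of alveolar macrophages (AMs) were examined as 10 genes: Cd274, Pdcd1lg2, Cd80, Cd86, Cd276, Vsir, Havcr2, Lgals9, Pvr and Nectin2. They were taken by gene name from a table of 54532 genes, and all 10 were among the 14256 genes with enough counts to be tested. Bulk RNA-seq was performed on AMs, macrophages that reside in the airspaces of the lung, purified from female wild-type mice, and the series asks how they change before lung metastases appear, with AHR, the aryl hydrocarbon receptor, at its centre. The control group comprised 2 libraries from mice that received no 4T1 cells. The tumor group comprised 2 libraries from mice that carried a primary 4T1 tumor for 2 weeks. Both groups shared the wild-type genotype, and neither carried a transgene or received a drug. The labels give neither strain nor age. Wild-type mice of the series were described in general as BALB/c, obtained at 8 to 10 weeks of age. 4T1 cells come from a mammary carcinoma of the mouse, grow in the fat pad and metastasise to the lung. Whether a library came from 1 mouse or from pooled mice is not given in the sources used here, so the spread between libraries may be technical, and all p-values measure that spread alone.

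A T cell that recognises an antigen also reads a second layer of signals from ligands on the presenting cell. CD80 and CD86 engage CD28, which supports activation, and CTLA-4, which restrains it, while PD-L1, encoded by Cd274, and PD-L2, encoded by Pdcd1lg2, engage the inhibitory receptor PD-1. VISTA, encoded by Vsir, and B7-H3, encoded by Cd276, are further members of the same B7 family, galectin-9, encoded by Lgals9, binds TIM-3, encoded by Havcr2, and the adhesion proteins encoded by Pvr and Nectin2 bind the inhibitory receptor TIGIT and the activating receptor CD226.

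Total counts ranged from 16167147 to 19205737 per library, and levels are given as CPM, the counts of a gene relative to a common library size, after scaling by TMM, a trimmed mean of ratios between libraries. AM markers were abundant in every library, and the tumor libraries also held transcripts of other cell types. All 12 AM markers, among them Siglecf, Itgax, Mrc1 and Chil3, were lower in the tumor libraries (median log2 fold change -0.47, from -0.16 for Siglecf to -2.13 for Fabp4). When libraries were scaled to their summed AM markers, 4 of the 12 were called higher and 5 lower. The summed level of the 12 was 14601 to 14711 CPM in the control libraries and 10364 to 10538 CPM in the tumor libraries. All 12 neutrophil markers rose, from a summed 76.1 to 76.2 CPM up to 4572 to 4590 CPM, with Elane at 0 in both controls. All 5 eosinophil markers rose from 0.480 to 0.507 CPM up to 2204 to 2224 CPM, with Prg3 at 0 in both controls. All 8 hepatocyte markers rose from 0.160 to 0.190 CPM up to 678 to 685 CPM, with Alb, Ahsg, Ttr, Fgb, Apob and Hpd at 0 in both controls. The summed basophil and mast cell markers, of which 5 of 6 rose, went from 0.267 to 0.317 CPM up to 50.5 to 55.7 CPM, with Mcpt8, Fcer1a, Ms4a2 and Cma1 at 0 in both controls. Of the 7 dendritic cell markers 3 rose and 1 fell (13.1 to 13.3 CPM against 37.0 to 38.7 CPM), and of the 9 monocyte and interstitial macrophage markers 3 rose and 4 fell (47.1 to 47.4 CPM against 47.2 to 49.9 CPM). T cell markers rose in 3 of 7 cases (5 when libraries were scaled to their AM markers or with no filter on low counts, and 1 with at least 10 counts required in every library) and B cell markers in 4 of 5, fibroblast markers in 4 of 5 and endothelial markers in 1 of 4 (0 without either control library or tumor replicate 1). Of 7 epithelial and carcinoma markers 2 rose and 4 fell (4 higher and 2 lower with that AM marker scaling, and 1 higher without control replicate 2 or tumor replicate 2). Ahr measured 5.64 ± 0.176 CPM in the controls and 58.8 ± 0.403 CPM with a tumor (SD, n = 2), and its log2 fold change was 3.38 ± 0.0983 (SE, edgeR adjusted p = 1.72e-21). The study describes isolating AMs both for imaging, where they were gated as CD45+ CD11b- CD11c+ SiglecF+, and for RNA-seq, whose methods state no gate. That gate would leave out neutrophils, hepatocytes and CD11b+ eosinophils. In bulk RNA, fewer cells of a type and less RNA per cell cannot be told apart, and the part of the other cell types in the values below was not tested.

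Of the 10 genes, 3 were called higher in the tumor group (Lgals9, Vsir and Cd80) and 5 lower (Cd86, Havcr2, Nectin2, Pvr and Cd274), while Pdcd1lg2 and Cd276 did not pass the threshold of an adjusted p under 0.05 in edgeR's quasi-likelihood test. Over all genes tested, 53.8% were called, 29% higher and 24.8% lower, so calls were frequent everywhere and 8 of 10 is to be read against that share. The median log2 fold change was -0.25 over the 10 genes and 0.02 over all genes tested. The summed level of the 10 genes was 879 to 888 CPM in the control libraries and 919 to 922 CPM in the tumor libraries. Values of the 2 groups overlapped for Cd276 and for none of the other 9 genes. The share of all genes tested without overlap was not computed, so that count is not read as a trait of these genes. Because every AM marker fell, the fit was also run with each library scaled to its summed AM marker counts, which gives each level relative to these markers. The largest parts of that sum were Chil3 and Mrc1 (control means 5168 and 3423 CPM, log2 fold changes -0.45 and -0.47). The markers did not fall evenly, from -0.16 for Siglecf to -2.13 for Fabp4, so the values under this scaling depend on the markers that dominate the sum. That scaling moved the median of all genes to 0.50, with 69% of genes called higher and 5.13% lower. Under it, Cd274, Cd80, Vsir and Lgals9 were called higher, Cd86 and Havcr2 lower, and the other 4 genes were not called. Lgals9, Vsir, Cd80, Cd86 and Havcr2 therefore held their direction under both scalings, whereas the direction of Cd274 depended on the scaling.

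**Figure D1:**
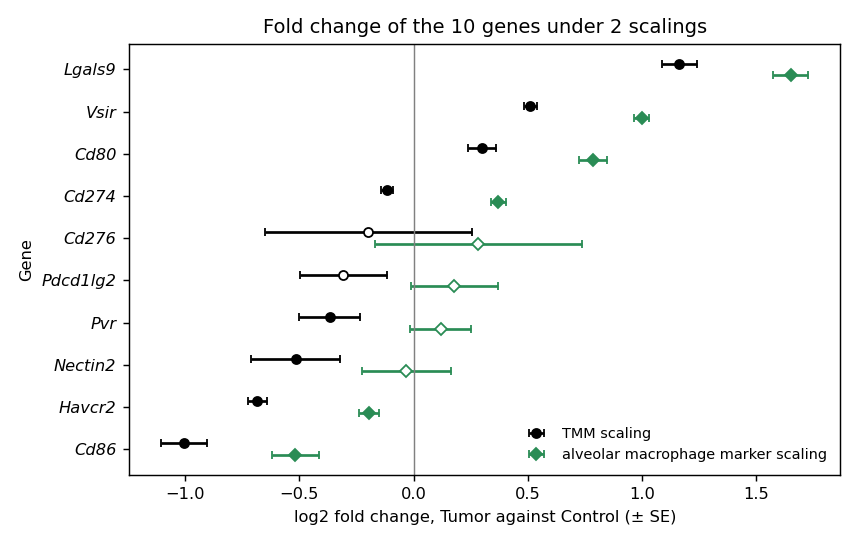
The log2 fold change of each gene (x axis, tumor against control, bars ± SE) is shown for the TMM scaling (black circles) and for scaling to AM markers (green diamonds), with filled symbols for an edgeR adjusted p under 0.05. Lgals9 lies at 1.16 and 1.65 and Cd86 at -1.005 and -0.52, on the same side of 0 under both scalings, while Cd274 lies at -0.12 under TMM and at 0.37 under AM marker scaling.

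Compared per length of the gene model, as FPKM from total counts, Cd274 was the most abundant of the 10 transcripts in both groups. In the control libraries the order of mean FPKM was Cd274 at 93.9, Havcr2 at 58.6, Vsir at 45.6, Cd80 at 14.3, Lgals9 at 12.7, Cd86 at 7.85, Pdcd1lg2 at 3.43, Pvr at 2.06, Nectin2 at 1.90 and Cd276 at 0.250. In the tumor libraries the order of mean FPKM was Cd274 at 90.7, Vsir at 68.0, Havcr2 at 38.2, Lgals9 at 29.6, Cd80 at 18.4, Cd86 at 4.11, Pdcd1lg2 at 2.89, Pvr at 1.66, Nectin2 at 1.38 and Cd276 at 0.225. Vsir and Havcr2 exchanged places, as did Cd80 and Lgals9, and the other 6 genes held the same rank in both groups. Among neighbours in each order, Pvr and Nectin2 were the pair whose libraries overlapped, so their order is not resolved.

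**Figure D2:**
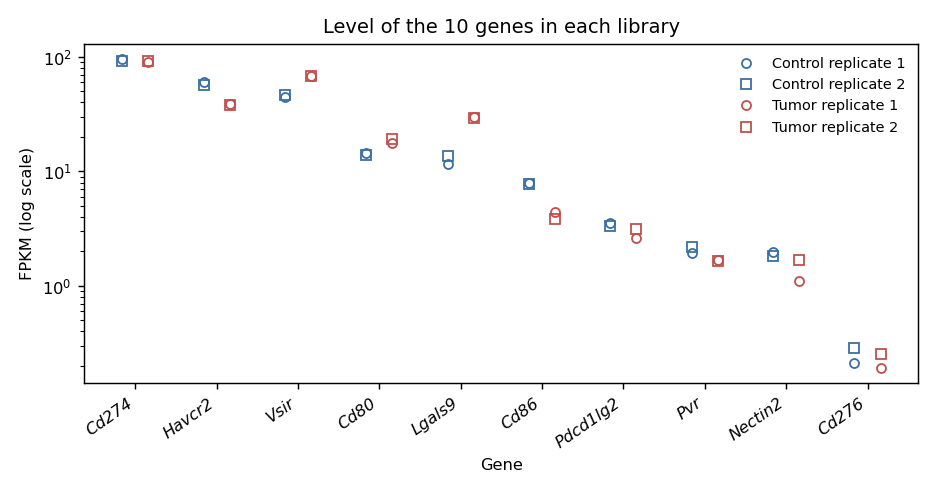
FPKM of each gene (y axis, log scale) is plotted in the 4 libraries (blue, control; red, tumor; circles, replicate 1; squares, replicate 2), with genes ordered by their control mean. Cd274 stands at the top at 93.9 and 90.7 FPKM and Cd276 at the bottom at 0.250 and 0.225 FPKM, and Lgals9 moves past Cd80 in the tumor libraries.

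Cd274 (ENSMUSG00000016496, GRCm38 chr19:29367455-29388095, plus strand) encodes PD-L1. It measured 353.1 and 344.1 CPM in the control libraries and 319.3 and 324.0 CPM in the tumor libraries. Both tumor libraries lay under both control libraries, but by little. The mean went from 348.6 ± 6.36 to 321.6 ± 3.32 CPM (SD, n = 2) and the log2 fold change was -0.12 ± 0.0283 (SE, edgeR adjusted p = 0.000960), and under TMM scaling the level fell by 7.76%. With total counts as library sizes the log2 fold change was -0.05 and was not called (edgeR adjusted p = 0.139), and with AM marker scaling it was 0.37 ± 0.0318 in the opposite direction (edgeR adjusted p = 6.24e-11). Cd274 was thus abundant in every library, and no direction of change held across the scalings. The 3 genes whose log2 CPM over the 4 libraries lay nearest to that of Cd274 by Euclidean distance were Uba1 (distance 0.0366), Fam120a (0.0514) and Clta (0.0686).

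The AHR question gives a reason to look at the sequence before Cd274, since AHR with its partner ARNT binds the xenobiotic response element, whose core is GCGTG. The 250 bases before the RefSeq start of Cd274 (chr19:29367188-29367437, GRCm38.p6, plus strand) held this core once, at positions -201 to -197 from the start (chr19:29367237-29367241), inside the gene model of Plgrkt on the opposite strand. It is shown with 12 bases to either side and the core in capitals.
Cd274: actggaattaagGCGTGtgtcaccgcacc
Nectin2, the other gene with the core, held it 2 times, at -129 to -125 and at -108 to -104 (chr7:19749698-19749702 and chr7:19749677-19749681, minus strand). The Nectin2 window, like those of Cd80 and Cd276, lay inside the gene model used for its counts.
Nectin2 upstream: ggttgtgtgtggGCGTGgctccatgtcga
Nectin2 downstream: catgtcgagtggGCGTGgtcaaatagtta
Searched on both strands, GCGTG stood in 2 of the 8 promoters of these genes found in the RefSeq table and in 28.2% of all 32851 promoters of the same length. TTCNNNGAA, the gamma-activated site of interferon gamma targets, stood in 0 of the 8 and in 7.02% of all promoters. Cd86 and Pvr were the genes with no entry. The study examined AHR binding at Cd274 by ChIP-qPCR in peritoneal macrophages, at sites listed further upstream than the 250 bases searched here. Whether AHR binds the cores shown was not tested.

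Cd274 and Pdcd1lg2 (GRCm38 chr19:29410919-29471157, plus strand) are neighbours on chromosome 19. Pdcd1lg2, the gene of the other PD-1 ligand, measured 5.98 and 5.58 CPM in the control libraries and 4.22 and 5.10 CPM in the tumor libraries, on 73 to 112 counts. Both tumor values were under both control values, but the log2 fold change of -0.31 ± 0.190 (SE, 95% interval -0.70 to 0.08) did not pass the test (edgeR adjusted p = 0.180), and with AM marker scaling it was 0.18. PD-L1 transcripts outnumbered PD-L2 transcripts per length by 26.8-fold and 28.0-fold in the control libraries and by 34.4-fold and 28.9-fold in the tumor libraries. The ratio within a library, which no scaling can move, differed by 0.20 on the log2 scale (0.07 without tumor replicate 1 and 0.33 without tumor replicate 2), higher in the tumor group, with a two-sided exact permutation p = 0.3333, the smallest that 2 libraries against 2 can give. Of the other protein-coding genes within 200 kb of Cd274, Jak2, the gene of 1 of the kinases that carry the interferon gamma signal, rose (log2 fold change 1.32 ± 0.0476 SE, edgeR adjusted p = 2.68e-19). Ric1 fell by 0.29 on the log2 scale (edgeR adjusted p = 1.04e-06) but was higher by 0.20 with AM marker scaling. Plgrkt (-0.09, edgeR adjusted p = 0.165) and Insl6 (-0.67, edgeR adjusted p = 0.249) were not called, the former at 0.40 with AM marker scaling, and Rln1 had no counts in any library.

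Cd80 and Cd86, which encode the ligand pair shared by CD28 and CTLA-4, moved apart. Both lie on chromosome 16, Cd80 at GRCm38 chr16:38455561-38496335 on the plus strand and Cd86 at GRCm38 chr16:36603869-36666081 on the minus strand. Cd86 measured 29.7 and 29.1 CPM in the control libraries and 15.7 and 13.7 CPM in the tumor libraries. The groups were well apart, with a mean of 29.4 ± 0.402 against 14.7 ± 1.41 CPM (SD, n = 2). Its log2 fold change of -1.005 ± 0.0994 (SE, edgeR adjusted p = 1.26e-09) was the largest fall among the 10 genes, and with AM marker scaling it was -0.52 (edgeR adjusted p = 5.87e-05). Cd80 measured 55.4 and 53.0 CPM in the control libraries and 63.6 and 69.5 CPM in the tumor libraries. Both tumor libraries were above both controls. The mean went from 54.2 ± 1.70 to 66.6 ± 4.16 CPM (SD, n = 2) and the log2 fold change was 0.30 ± 0.0613 (SE, edgeR adjusted p = 0.000159), and 0.78 with AM marker scaling. The genes whose profile lay nearest to that of Cd86 were Fbf1 (distance 0.0656), Ckap2l (0.213) and Elovl6 (0.215).

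The balance of these ligands can be read within a library, free of any scaling between libraries. Per length, Cd80 transcripts exceeded Cd86 transcripts by 1.84-fold and 1.80-fold in the control libraries and by 4.01-fold and 5.01-fold in the tumor libraries. Expressed as a share, Cd80 made up 64.8% and 64.2% of the pair in the controls and 80.02% and 83.4% in the tumor libraries. The groups did not overlap, and the tumor libraries differed more between themselves than the controls did. The difference of the group means was 1.30 on the log2 scale, or 2.46-fold, with a two-sided exact permutation p = 0.3333, again the smallest that this design allows.

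**Figure D3:**
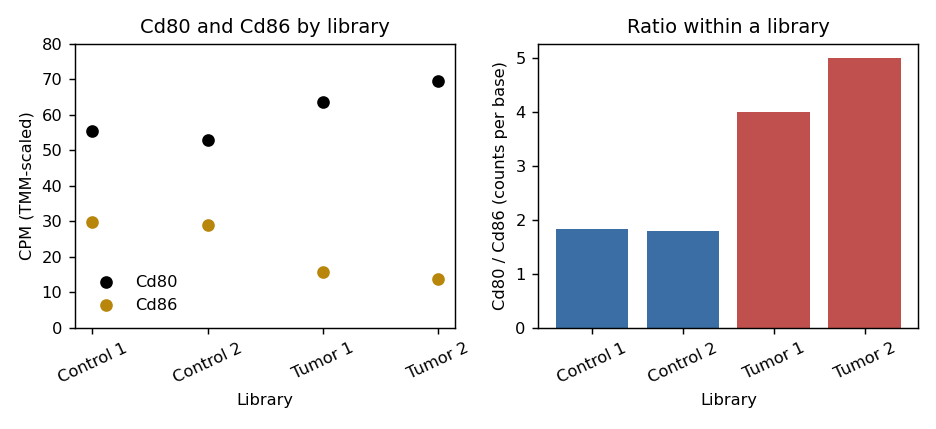
The left panel plots TMM-scaled CPM of Cd80 (black) and Cd86 (ochre) in each library, and the right panel plots, as bars from 0, the ratio of Cd80 to Cd86 counts per base of gene model. Cd80 is higher and Cd86 lower in both tumor libraries, and the ratio goes from 1.84 and 1.80 in the controls to 4.01 and 5.01.

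Of the other B7 genes, Vsir rose and Cd276 was barely detected. Vsir (GRCm38 chr10:60346851-60372684, plus strand), the gene of the inhibitory ligand VISTA, measured 230.9 and 237.4 CPM in the control libraries and 336.0 and 331.2 CPM in the tumor libraries. The libraries of a group lay close together and the groups did not overlap. The mean went from 234.2 ± 4.61 to 333.6 ± 3.36 CPM (SD, n = 2) and the log2 fold change was 0.51 ± 0.0300 (SE, edgeR adjusted p = 1.79e-14), or 1.43-fold higher. With AM marker scaling the log2 fold change was 0.999. Cd276 (GRCm38 chr9:58524298-58555437, minus strand) had 15, 17, 12 and 18 counts in control replicates 1 and 2 and tumor replicates 1 and 2. These values overlapped, and the log2 fold change was -0.20 ± 0.452 (SE, 95% interval -1.13 to 0.73, edgeR adjusted p = 0.742). The interval includes a change of 1 log2 unit downwards as well as no change.

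TIM-3 and its ligand galectin-9 also moved in opposite directions. Lgals9 (GRCm38 chr11:78962974-78984946, minus strand) measured 25.4 and 30.1 CPM in the control libraries and 62.5 and 61.4 CPM in the tumor libraries. Both tumor values lay far above both control values. The mean went from 27.8 ± 3.29 to 62.0 ± 0.834 CPM (SD, n = 2), and the log2 fold change of 1.16 ± 0.0761 (SE, edgeR adjusted p = 2.04e-13) was the largest rise among the 10 genes. Its nearest profiles were those of Rere (distance 0.198), Jdp2 (0.231) and Slc2a1 (0.235). Havcr2 (GRCm38 chr11:46454935-46481255, plus strand), the receptor gene, which myeloid cells also express, measured 167.8 and 158.7 CPM in the control libraries and 103.1 and 100.4 CPM in the tumor libraries. Every control library was above every tumor library. The mean went from 163.3 ± 6.41 to 101.8 ± 1.93 CPM (SD, n = 2) and the log2 fold change was -0.68 ± 0.0415 (SE, edgeR adjusted p = 3.75e-14), and -0.20 with AM marker scaling (edgeR adjusted p = 0.000353).

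The promoters of this receptor and ligand were picked to be shown after their opposite changes were seen, and galectin-9 is known to respond to interferon. Lgals9 held 1 match to the interferon response element, a pair of GAAA repeats 2 bases apart, on its reverse strand at -55 to -46 from the RefSeq start, given in capitals, and Havcr2 held none. The windows are the 250 bases before each RefSeq start, written 5′ to 3′ on the gene's strand (GRCm38.p6, chr11:78984925-78985174, minus strand, and chr11:46454681-46454930, plus strand).
Lgals9: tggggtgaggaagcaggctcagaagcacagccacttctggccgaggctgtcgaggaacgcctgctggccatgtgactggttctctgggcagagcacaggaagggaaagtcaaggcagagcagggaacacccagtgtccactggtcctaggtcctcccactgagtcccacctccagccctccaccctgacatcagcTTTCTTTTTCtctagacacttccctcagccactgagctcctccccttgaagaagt
Havcr2: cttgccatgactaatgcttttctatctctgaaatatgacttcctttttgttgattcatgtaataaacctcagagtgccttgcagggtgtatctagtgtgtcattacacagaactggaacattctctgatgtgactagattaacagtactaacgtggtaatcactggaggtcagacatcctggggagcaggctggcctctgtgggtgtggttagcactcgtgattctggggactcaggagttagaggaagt
Over the 8 promoters this element stood in 1, and over all 32851 promoters in 2.98%. Whether the match has a part in the change of Lgals9 was not tested.

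Pvr and Nectin2, whose products are ligands of TIGIT and CD226, were lower under TMM scaling, on a narrow margin. Both lie on chromosome 7 on the minus strand, Pvr at GRCm38 chr7:19903578-19921160 and Nectin2 at GRCm38 chr7:19716644-19750483. Pvr measured 12.1 and 13.7 CPM in the control libraries and 10.2 and 9.79 CPM in the tumor libraries. Its log2 fold change was -0.37 ± 0.133 (SE, edgeR adjusted p = 0.0210). Nectin2 measured 7.10 and 6.53 CPM in the control libraries and 3.75 and 5.71 CPM in the tumor libraries. The tumor libraries lay further from each other than the nearer one lay from the controls, and the log2 fold change was -0.52 ± 0.196 (SE, edgeR adjusted p = 0.0276). Neither call held with AM marker scaling (0.12 for Pvr, in the opposite direction, and -0.03 for Nectin2), with total counts (edgeR adjusted p = 0.0576 and 0.0544) or in DESeq2's Wald test (adjusted p = 0.120 and 0.144). The Pvr call was lost without control replicate 2 and without tumor replicate 2, and the Nectin2 call without control replicate 1 and without tumor replicate 1. Over the 4 libraries left out in turn, the log2 fold change of Pvr ran from -0.46 to -0.28. That of Nectin2 ran from -0.86 to -0.26, the latter without tumor replicate 1.

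Beyond the 10 genes, 48 genes of the same pathways were listed by role, and 37 of them had enough counts to be tested. Of these, 19 were higher, 9 lower and 9 not called under TMM scaling, with a median log2 fold change of 0.33. Against them stand the 29% of all genes called higher and the 24.8% called lower, and the counts of the separate lists below are to be read beside the same shares. With AM marker scaling 26 were higher and 4 lower, where 69% and 5.13% of all genes were, and 6 of the 37 genes changed sign. Icosl, the gene of the ICOS ligand, measured 295.6 ± 3.41 CPM without and 92.7 ± 4.42 CPM with a tumor (SD, n = 2) and the log2 fold change was -1.67 ± 0.0375 (SE, edgeR adjusted p = 3.78e-24). Tnfrsf14, which encodes HVEM, the partner of BTLA, rose from 9 and 5 counts to 61 and 73 counts (log2 fold change 3.14 ± 0.364 SE, edgeR adjusted p = 2.54e-08), and the other 5 genes of the B7, butyrophilin and HVEM list had too few counts. Of 9 TNF-family and CD2-family costimulators 6 were tested, 1 of which rose and 3 of which fell under TMM scaling (2 higher and 2 lower with AM marker scaling). Tnfsf14, which encodes LIGHT, another partner of HVEM, rose from 1.30 ± 0.130 to 22.3 ± 0.439 CPM (SD, n = 2, log2 fold change 4.09 ± 0.174 SE, edgeR adjusted p = 1.14e-17), and Tnfsf18, which encodes the ligand of GITR, fell from 46 and 43 counts to 10 and 9 counts (-2.31 ± 0.387 SE, edgeR adjusted p = 1.07e-05). Icam1, the ligand of the integrin LFA-1, fell from 553.2 ± 3.298 to 161.4 ± 2.72 CPM (SD, n = 2, edgeR adjusted p = 2.06e-27). The rise of Tnfsf14 ran beside that of the 12 neutrophil and 5 eosinophil markers given above, and the part of these cells was not tested.

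Among 8 other ligands of TIM-3, LAG-3, TIGIT and CD96, all tested, 5 were higher and 1 lower under TMM scaling, and 7 were higher and 0 lower with AM marker scaling. With at least 10 counts required in every library 2 were higher. The largest rise was that of Fgl1, which encodes a LAG-3 ligand made mainly by the liver. Both control libraries held 0 counts of it and the tumor libraries held 51 and 64 counts, a level at least 15.5-fold higher against a floor of 3 counts per library. The 8 hepatocyte markers rose in the same libraries, as given above, and their part in the Fgl1 value was not tested. Lgals3, the gene of galectin-3, fell by 0.26 on the log2 scale under TMM scaling (1264 ± 12.8 to 1053 ± 11.8 CPM, SD, n = 2, edgeR adjusted p = 4.02e-12) but was higher by 0.22 with AM marker scaling. On the T cell side, 4 of 7 tested receptor genes rose and 0 fell, under both scalings. Cd226 went from 4 and 3 counts to 10 and 23 counts (log2 fold change 2.09 ± 0.636 SE, edgeR adjusted p = 0.00678). Its fold change was the largest of the 4 by its estimate, but differed by less than its SE from those of Btla (1.83 ± 0.374 SE) and Ctla4 (1.76 ± 0.397 SE). The number that rose was 2 in DESeq2, where Cd226 (adjusted p = 0.0740) and Cd28 (0.148) were not called. It was also 2 without tumor replicate 2, again without Cd226 (edgeR adjusted p = 0.186) and Cd28 (0.129). The levels of the receptors stayed very low, at 5.39 to 6.35 CPM summed over the 9 listed receptors in the control libraries and 10.7 CPM in both tumor libraries, and the summed T cell markers went from 5.39 to 6.21 CPM up to 15.9 to 16.7 CPM beside them, with their part not tested. Pdcd1, the gene of PD-1 itself, had 1 to 5 counts per library and was not tested.

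Interferon gamma is a known inducer of PD-L1 through JAK kinases. Of the 7 tested genes of this pathway, 6 were higher and 1 lower under TMM scaling, and all 7 were higher with AM marker scaling, under which 69% of all genes were called higher. Jak2 rose from 55.8 ± 0.869 to 139.1 ± 3.46 CPM (SD, n = 2), as given above. Irf1, which encodes a transcription factor induced by interferon gamma, fell by 0.16 on the log2 scale (149.8 ± 4.07 to 134.5 ± 2.72 CPM, SD, n = 2, edgeR adjusted p = 0.00133), was higher by 0.33 with AM marker scaling, and lost the call with total counts (edgeR adjusted p = 0.0555). Ifng itself had 1 count in 1 library. Of 7 genes that act on PD-L1 or CD86 protein, 2 rose and 3 fell under TMM scaling, whereas 5 were higher and 1 lower with AM marker scaling. Cmtm6, whose product keeps PD-L1 at the cell surface, rose from 97.4 ± 2.89 to 146.7 ± 0.313 CPM (SD, n = 2, log2 fold change 0.59 ± 0.0417 SE, edgeR adjusted p = 1.11e-12). Cd83, whose product protects CD86 and MHC class II from MARCH1, fell from 423.6 ± 4.47 to 175.7 ± 4.02 CPM (SD, n = 2, -1.27 ± 0.0303 SE, edgeR adjusted p = 1.60e-23), in the same direction as Cd86. March1, the gene of that ubiquitin ligase, and March8, the gene of a related one, went opposite ways under TMM scaling. March1 rose from 70.4 ± 5.54 to 93.4 ± 6.10 CPM (SD, n = 2, 0.40 ± 0.0570 SE, edgeR adjusted p = 8.59e-07). March8 fell from 82.9 ± 1.21 to 71.0 ± 4.46 CPM (SD, n = 2, -0.22 ± 0.0537 SE, edgeR adjusted p = 0.000921), but was higher by 0.26 with AM marker scaling.

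**Figure D4:**
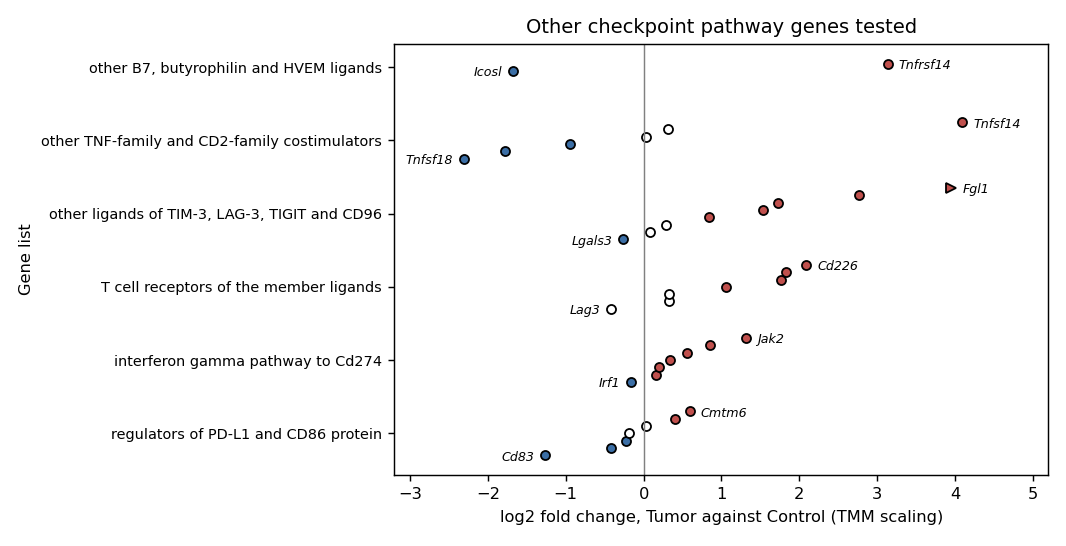
Each point is the log2 fold change (x axis, tumor against control, TMM scaling) of 1 tested gene of the 6 other pathway lists (rows), in red where called higher, blue where called lower and white where not called, and the triangle is the lower bound for Fgl1. Icosl at -1.67, Tnfsf18 at -2.31 and Cd83 at -1.27 lie to the left, Tnfsf14 at 4.09 and Tnfrsf14 at 3.14 to the right, and 6 of the 37 genes (Lgals3, Lag3, Irf1, Cmtm4, March8 and B4galt1) change sides under AM marker scaling.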

How the data were processed

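AMs were purified, and NEBNext Ultra RNA libraries were prepared from TRIzol-extracted total RNA. Paired-end reads were aligned with HISAT2 2.0.5 and counted per gene with featureCounts. The submitters' processing notes also name DESeq2. The deposited values are counts per gene, without normalization by the authors, in a single table. Genome build, annotation release, strandedness and the handling of multimapping reads are not given in the sources used here, so reads of overlapping or antisense genes may be shared. Of 54532 gene identifiers 54495 were found in a GENCODE annotation of GRCm38, 98.3% of them with identical coordinates. Of the 10 genes 9 were identical, and Pdcd1lg2 ended at 29471157 in the deposited table and at 29471161 in the annotation.

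Counts were tested in R 4.3.3 with edgeR 4.0.16 (filterByExpr, TMM, glmQLFit and glmQLFTest, 2 residual degrees of freedom, Benjamini-Hochberg adjustment over 14256 genes), after the script was tested on simulated data. SEs were taken as log2 fold change over the root of the F statistic. FPKM was computed from counts, total counts and the listed gene length. The replicate libraries differed beyond sampling noise (chi-square per gene 1.81 in the control pair and 2.30 in the tumor pair), but by little. The common dispersion was 0.000916, a biological coefficient of variation of 0.0303. The test also borrowed spread across genes (median prior degrees of freedom 24.2), so small changes could reach low p-values. Groups came from the sample titles. Alternatives were other scalings, filters and thresholds, DESeq2 1.42.0, limma-voom (limma 3.58.1), protein-coding genes alone, a replicate block and leaving out each library.

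The genes and lists were chosen with earlier results of these data known. Named by value were the 10 genes, the largest called rise and fall of each list, the 3 nearest profiles of Lgals9, Cd86 and Cd274 (log2(CPM + 1)), protein-coding genes within 200 kb of Cd274, and Ahr. 1 gene of the interferon gamma list is not reported here. Icam1, March1, Btla, Ctla4, Cd28 and the genes that change sign between scalings were added after their values were seen. Motifs were searched in RefSeq promoters (GRCm38.p6).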

Additional observations from a re-analysis of the deposited data

How the results depend on the processing

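Of the 8 calls among the 10 genes, those of Cd80, Cd86, Vsir, Havcr2 and Lgals9 kept direction and call under all 9 alternatives of scaling, filter and tool and without any 1 library. Beside 8 calls in the main test (3 higher, 5 lower), 5 genes were called with total counts as library sizes (2 lower), and with a change of at least 1.5-fold 3 were called (1 higher, 2 lower). The number called lower was 2 with AM marker scaling, 3 in DESeq2's Wald test and 3 at an adjusted p under 0.01. Leaving out each library in turn gave 7 calls, 3 higher and 4 lower, with the lone library of a group assumed to vary like the other group. AM marker scaling gave Cd274 0.37, Pdcd1lg2 0.18, Cd276 0.28, Pvr 0.12, Lgals3 0.22, Irf1 0.33, Plgrkt 0.40 and Ric1 0.20 on the log2 scale, opposite to TMM, and over all genes it raised the calls from 7671 to 10574 and the share of calls that were higher from 53.9% to 93.1%; with total counts that share was 62.6%. Without control replicate 2 the value of Cd276 was 0.012, within a range of -0.42 to 0.012 over the 4 libraries left out. Among the 48 other pathway genes 28 were called, 19 of them at least 1.5-fold, with 5 lower, and with AM marker scaling 26 were higher and 4 lower. The cause was not tested. Requiring at least 10 counts in every library, which removes genes near 0 in the controls, left 5 neutrophil and 0 eosinophil, basophil and mast cell, hepatocyte, epithelial, endothelial or fibroblast markers called higher. A replicate block gave 8 calls among the 10 genes, 27 among the pathway genes and 1.30 for the Cd80 to Cd86 ratio, and changed no call among the 10. Libraries of the same number did not deviate together (correlation 0.0123 across genes). With 1 difference per group, this cannot exclude a shared batch or a pairing. For Cd276, at 12 to 18 counts per library, a change of 1 log2 unit downwards lay within the 95% interval.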
